A study of Homo sapiens with 4 samples.

Results

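The 7 acute-phase genes SAA1, SAA2, SAA4, PTX3, LCN2, ORM1 and HP encode secreted proteins of inflammation, and their RNA was followed in MDA-MB-231 breast cancer cells after transduction with a hairpin against the ion channel and kinase TRPM7. They are 7 of 31427 gene symbols on the array, and the members were the 9 probes, of 47323, that carried 1 of these 7 symbols in the table of unnormalised signals. Probes are kept apart because the SAA genes share sequence. The members were chosen with the difference between the groups already in view, so their changes are given as a description and were not tested. The platform was the Illumina HumanHT-12 v4 array, on which each probe is a short oligonucleotide carried by beads. The groups were shT7#1, cells of the line transduced with TRPM7 shRNA (2 arrays), and shCntrl, the same line transduced with a scrambled shRNA (2 arrays). Both groups were transduced and carry a hairpin, and both were grown in DMEM with serum. A single TRPM7 hairpin was used in these samples, and the labels do not say whether the cells were cloned or whether the arrays came from separate cultures. The spread between arrays of a group may therefore be technical.

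The acute-phase response is the change in plasma proteins that follows infection or injury. Interleukin 1, tumour necrosis factor and interleukin 6 drive it, chiefly in the liver, through NF-kB, C/EBP and STAT3 factors. Serum amyloid A proteins ride on high-density lipoprotein. PTX3 is a long pentraxin made outside the liver by many cell types, and LCN2 (lipocalin 2) captures bacterial siderophores and so withholds iron. ORM1 is a plasma carrier protein and HP, haptoglobin, binds free haemoglobin. Tumour cells can make several of these proteins themselves.

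Sequence windows around the RefSeq gene starts, from position -250 to position 50, were at hand for 4 of the 7 members (PTX3, LCN2, SAA4 and ORM1). The windows of the 3 members that were detected are shown because motifs of the factors named above can be read in them. Capitals mark matches on either strand to the kappaB consensus, the binding motif of NF-kB, and to TTNNGNAA, a motif of C/EBP factors. The windows are on build GRCh38.p14, PTX3 at chr3:157436600-157436899 (plus strand), LCN2 at chr9:128149203-128149502 (plus strand) and SAA4 at chr11:18236753-18237052 (minus strand), each written 5′ to 3′ on the strand of its gene.
PTX3: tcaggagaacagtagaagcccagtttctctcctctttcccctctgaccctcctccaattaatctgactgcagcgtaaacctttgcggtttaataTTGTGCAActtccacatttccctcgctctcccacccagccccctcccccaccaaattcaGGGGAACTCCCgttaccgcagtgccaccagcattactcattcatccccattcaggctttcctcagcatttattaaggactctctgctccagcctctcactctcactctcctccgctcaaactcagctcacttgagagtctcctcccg
LCN2: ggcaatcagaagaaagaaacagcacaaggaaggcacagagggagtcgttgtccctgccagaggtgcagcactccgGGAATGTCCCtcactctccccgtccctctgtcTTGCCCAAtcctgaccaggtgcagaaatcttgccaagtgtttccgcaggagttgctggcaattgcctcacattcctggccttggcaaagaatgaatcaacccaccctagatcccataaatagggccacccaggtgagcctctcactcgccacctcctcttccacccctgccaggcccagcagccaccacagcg
SAA4: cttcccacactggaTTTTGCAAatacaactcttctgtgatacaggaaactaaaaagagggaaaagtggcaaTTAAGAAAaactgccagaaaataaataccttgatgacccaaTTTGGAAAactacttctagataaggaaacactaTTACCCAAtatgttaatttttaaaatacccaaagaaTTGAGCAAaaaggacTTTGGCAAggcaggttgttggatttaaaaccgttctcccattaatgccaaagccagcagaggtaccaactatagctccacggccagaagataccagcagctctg

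In the PTX3 window the kappaB consensus matched in a single stretch from -97 to -87, counted from the gene start, with 3 overlapping matches over both strands. The LCN2 window held 1 kappaB match, from -175 to -166 on the opposite strand. The SAA4 and ORM1 windows held 0. Of the 35116 windows of this length in the RefSeq table, some of them of the same gene, 11.3% held at least 1 kappaB match. The motif TTNNGNAA matched once in PTX3 and once in LCN2, 6 times in SAA4 and 2 times in ORM1, against 36.8% of all windows with at least 1 match. No kappaB match overlapped a match to TTNNGNAA in these windows. TTCNNNGAA, the motif of STAT factors, was not found in any of the 4 windows and stands in 7.66% of all windows. A match is a description of letters and was not tested as a binding site.

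**Figure D1:**
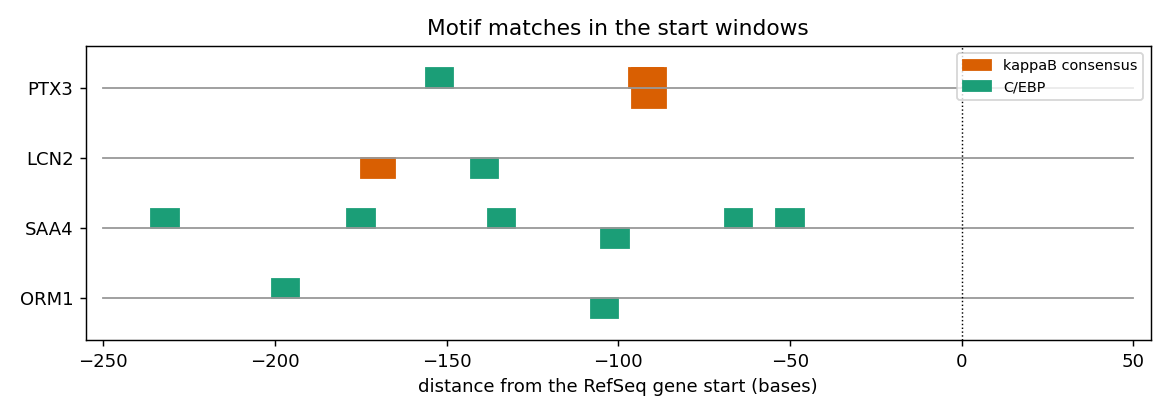
Matches to the kappaB consensus (orange) and to the C/EBP motif TTNNGNAA (green) in the windows of PTX3, LCN2, SAA4 and ORM1, by distance from the RefSeq gene start in bases, with boxes above the line on the strand of the gene and below it on the opposite strand. PTX3 and LCN2 each hold a kappaB stretch, and SAA4 has 6 C/EBP matches and 0 kappaB matches.

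The arrays were of like quality. Between 19492 and 20261 of the probes were above background per array, that is, had a detection p below 0.05 against the negative control beads. Log2 values of the 20366 probes that passed the detection filter (above background on at least 2 of 4 arrays) correlated at 0.992 between the shT7#1 arrays and at 0.993 between the shCntrl arrays. The detection floor, the lowest normalised signal of a probe above background, lay between 4.92 and 4.98 log2 units per array. The TRPM7 probe had detection p-values of 0.529 and 0.331 on the shT7#1 arrays, against 0.275 and 0.443 on the shCntrl arrays, so the arrays gave no check of the knockdown. As for the cell line, 7 of 7 markers of MDA-MB-231 cells such as VIM and CD44 passed the filter. Of 6 markers of luminal or basal epithelium 4, CDH1, ESR1, PGR and KRT5, did not. ERBB3 and GATA3 of that list did pass, above background on all 4 arrays. They lay at -0.58 and 0.33 log2 units, shT7#1 minus shCntrl, and were not called (limma adjusted p 0.0879 and 0.418). Among these markers the matrix protein gene TGFBI, fell by 1.35 log2 units (SE 0.12, limma adjusted p 0.00724), a call lost on leaving out any 1 array, with adjusted p-values between 0.0570 and 0.0614. Of 13 neutrophil and myeloid markers 1 passed, CD68, and of 10 hepatocyte markers 1 passed, ALB. Neither was called by limma, with adjusted p-values of 0.476 and 0.194, and the myeloid granule genes MPO, ELANE, CAMP and LTF and the hepatocyte genes APOB and TTR did not pass the filter. In such bulk RNA, fewer cells that make a transcript and less RNA per cell cannot be told apart.

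Of the 9 acute-phase probes 7, from 5 of the 7 genes, passed the detection filter, and on each of the 7 both shT7#1 arrays lay above both shCntrl arrays. Among all passing probes 26.7% showed that order. Of the 7 probes 6 were at least 2-fold higher in shT7#1, a size reached by 1.04% of all passing probes, with a probe within background in shCntrl counted at its lower bound. The SAA4 and LCN2 probes passed the filter through their shT7#1 arrays alone. For scale, limma called 2.08% of all passing probes higher and 2.56% lower at an adjusted p under 0.05, with no such count given for the members. Since the members were chosen on this difference, neither count is a result about them. ORM1 and HP were at background in both groups. For SAA4 and LCN2, whose shCntrl level was within background, only a lower bound of the change is known.

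**Figure D2:**
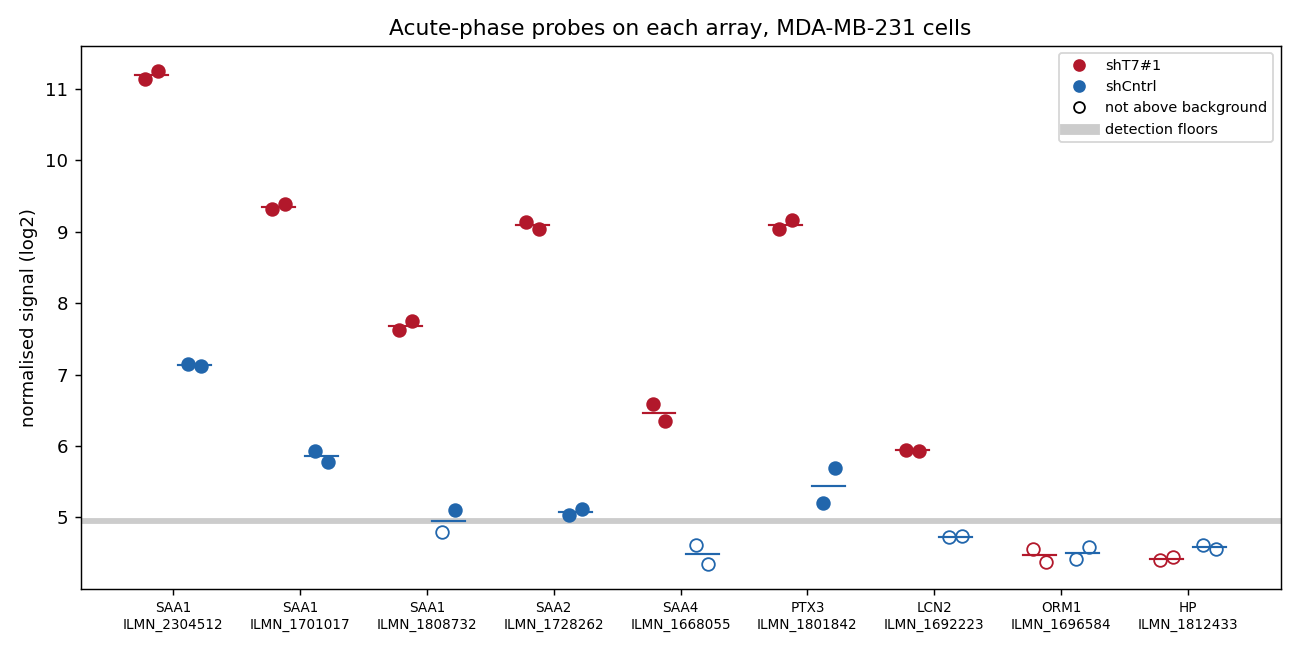
Normalised log2 signal of the 9 acute-phase probes on each array, with shT7#1 in red left of shCntrl in blue, horizontal lines at the mean of 2 arrays and open circles for signals not above background. The grey band spans the detection floors, and ORM1 and HP lie under it in both groups.

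SAA1, the main inducible serum amyloid A, had 3 probes. The brightest, ILMN_2304512, read 2238 and 2728 signal units on the shT7#1 arrays, against 232.4 and 246.8 on the shCntrl arrays, before normalisation. On the normalised log2 scale these were 11.14 and 11.26 in shT7#1 and 7.15 and 7.12 in shCntrl. The groups were far apart and the arrays of each lay close together, with a log2 change of 4.07 ± 0.12 (SE), or 16.7-fold. SEs come from the limma fit, which borrows spread from all probes fitted. All 4 signals of ILMN_2304512 were above background, and its increase ranked 6 among 20366 passing probes. The members were chosen on this difference, so the rank is a description and no result about SAA1. Probes within background in shCntrl were ranked at their fitted change, which is not a measured size.

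SAA1 probe ILMN_1701017 had log2 signals of 9.32 and 9.39 in shT7#1 and 5.93 and 5.77 in shCntrl, a change of 3.50 ± 0.13 (SE). SAA1 probe ILMN_1808732 had 7.63 and 7.75 in shT7#1 and 4.80 and 5.11 in shCntrl, a change of 2.73 ± 0.15 (SE). On shCntrl replicate 1 this probe was not above background, with a detection p of 0.109, so its shCntrl mean rests on 1 measured array. The 3 probes therefore gave the same direction and different sizes, from 6.65-fold to 16.7-fold.

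SAA2, a close paralog of SAA1 beside it on chromosome 11, had 1 probe, ILMN_1728262. Its log2 signals were 9.14 and 9.04 in shT7#1 and 5.03 and 5.12 in shCntrl, a change of 4.02 ± 0.13 (SE), or 16.2-fold. In shCntrl it was barely above background, with detection p-values of 0.0364 and 0.0208. SAA1 and SAA2 share most of their sequence, so their probes may read both transcripts, and which of the paralogs gave the signal was not tested.

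SAA4, known as the constitutive member of the family and a lesser responder in the liver, also read higher in shT7#1. Its probe ILMN_1668055 had log2 signals of 6.59 and 6.34 in shT7#1 and 4.61 and 4.35 in shCntrl. Both shCntrl signals were within background, with detection p-values of 0.260 and 0.905, so only a bound can be given. Set against the detection floor, SAA4 was at least 2.88-fold higher in shT7#1. RefSeq also annotates a readthrough gene, SAA2-SAA4, and which transcript the probe reads was not tested.

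PTX3 had 1 probe, ILMN_1801842, which read 582.7 and 711.7 signal units in shT7#1 and 132.0 and 150.5 in shCntrl. Its normalised log2 signals were 9.03 and 9.16 in shT7#1 and 5.20 and 5.69 in shCntrl. The change was 3.65 ± 0.19 log2 units (SE), or 12.6-fold, with all 4 signals above background. The shCntrl arrays differed more from each other (SD 0.35) than the shT7#1 arrays did (SD 0.09), and the lower of them lay close to the detection floor.

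LCN2 was above background in shT7#1 alone. Its probe ILMN_1692223 had log2 signals of 5.95 and 5.93 in shT7#1 and 4.72 and 4.73 in shCntrl. In shCntrl neither signal was above background (detection p 0.156 and 0.127), and in shT7#1 both were, at 0.00260 and 0.00130. Measured against the detection floor LCN2 was at least 1.996-fold higher in shT7#1. Its readings lay close together within each group, with an SD of 0.01 in both. In shCntrl that is the spread of readings within background, not of a measured LCN2 level.

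ORM1 and HP gave no level in either group. The ORM1 probe had detection p-values of 0.340 and 0.795 in shT7#1 and 0.679 and 0.299 in shCntrl, and its log2 signals of 4.56 and 4.38 in shT7#1 overlapped those of 4.42 and 4.58 in shCntrl. The HP probe had detection p-values of 0.748 and 0.573 in shT7#1 and 0.265 and 0.335 in shCntrl. HP read 4.40 and 4.45 log2 units in shT7#1 and 4.61 and 4.56 in shCntrl, all under the floor, so no fold was computed for it or for ORM1. Their near-identical neighbours ORM2 and HPR did not pass the detection filter either.

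The size of the changes, but not their direction, depended on the processing, including how background was treated. Without background correction the 3 SAA1 probes changed by 3.37, 2.28 and 1.26 log2 units, in the order above, SAA2 by 2.30, PTX3 by 2.20, SAA4 by 0.75 and LCN2 by 0.39. With the authors' processed values, 1 per gene symbol, the changes were 4.24 for SAA1, 5.22 for SAA2, 4.51 for PTX3, 3.88 for SAA4 and 2.38 for LCN2. On that scale SAA2 stood above SAA1, while the 2 lay close together at 4.02 and 4.07 under normexp at their brightest probes. The authors' deposited table accordingly lists larger folds of shT7#1 over shCntrl for SAA2 (37.23) than for PTX3 (22.78) and SAA1 (18.84). SAA1 has 3 probes behind its 1 value there, and SAA2 was barely above background in shCntrl, so the order of the 2 is not settled and its cause was not tested. SAA4 stands at 14.73 and LCN2 at 5.19 in the authors' deposited table, without regard to the background calls, and HP at 0.69, while ORM1 has no row there. For SAA4 and LCN2 each of these values is set against a shCntrl signal within background, so it is not a measured size and gives no order between them.

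**Figure D3:**
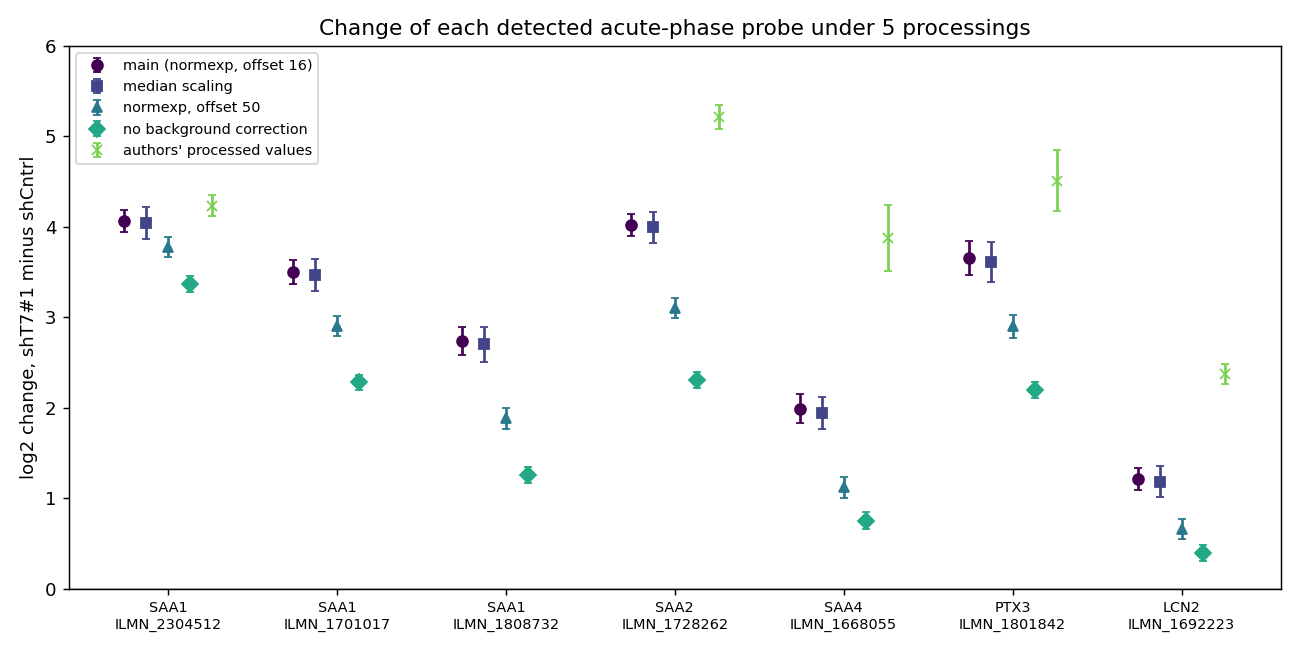
Log2 change, shT7#1 minus shCntrl, of the 7 detected acute-phase probes under 5 ways of processing, with standard errors as bars. The changes stay above 0 throughout, shrink without background correction and are larger on the authors' values, which exist once per gene and are drawn at the brightest probe. The SAA4 and LCN2 values rest on shCntrl signals within background and are not measured sizes.

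The cytokines that drive acute-phase genes were measured with a test, since they were not used to choose the members, although they were listed with earlier results of these data known. Of 11 genes for inducing cytokines, 7 passed the detection filter. By limma, with Benjamini-Hochberg adjustment over all passing probes, 4 of them rose, 0 fell and 3 missed the threshold. At an unadjusted p under 0.05 the counts were 5 higher and 1 lower. Over all 14928 genes tested at their brightest passing probe, 2.18% were called higher and 2.68% lower. At an unadjusted p under 0.05, 1732 of the 14928 were higher and 1905 lower. IL1A, IL1B and TNF passed the filter through their shT7#1 arrays alone, which favours a call of higher, and 2 of the 4 that rose, IL6 and IL11, were above background in shCntrl too. Over all genes tested 226 passed through shT7#1 alone and 297 through shCntrl alone. With the 3 genes at their lower bounds the median log2 change of the 7 was 1.28, against -0.00 over all genes tested. That median is the bound of IL1B, so it rests on a gene admitted through shT7#1 alone and is not a measured size. Of the genes above background in both groups, IL6 lay at 3.19, IL11 at 0.91, LIF at 0.18 and CLCF1 at -0.41 log2 units.

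Interleukin 6 (IL6), the main inducer of the acute phase in hepatocytes, was well above background in both groups, at 10.97 and 11.10 log2 units in shT7#1 and 7.81 and 7.88 in shCntrl. It rose by 3.19 ± 0.13 log2 units (SE), or 9.14-fold, with a limma adjusted p of 0.000770. Interleukin 1 alpha (IL1A) read 7.995 and 8.21 log2 units in shT7#1 and, within background, 4.62 and 4.57 in shCntrl. IL1A rose at least 8.95-fold, with a limma adjusted p of 0.000770, in a test it entered through shT7#1 alone. TNF, tumour necrosis factor, read 7.49 and 7.32 log2 units in shT7#1 and, also within background, 4.29 and 4.62 in shCntrl. TNF rose at least 5.52-fold, with a limma adjusted p of 0.00231 under the same limit. When any 1 array was left out, the fitted change of IL6 lay between 3.13 and 3.26 log2 units. For IL1A and TNF leaving out arrays is no check, because they pass the filter only with both shT7#1 arrays. The filter was kept as set on all 4 arrays, and their shCntrl readings are within background. IL1A and TNF could not be tested where detection on all 4 arrays was required.

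Interleukin 1 beta (IL1B) read 6.68 and 5.75 log2 units in shT7#1 and 4.59 and 4.76, within background, in shCntrl. Its arrays were further apart in shT7#1 (SD 0.66), and it missed the threshold with a limma adjusted p of 0.0526 and a bound of 2.42-fold. Over its 12 alternatives that adjusted p lay between 0.00143 and 0.192, and it was under 0.05 in 7 of them. IL11, of the interleukin 6 family, rose by 0.91 ± 0.12 log2 units (SE; limma adjusted p 0.0218), a call lost on leaving out any 1 array, with adjusted p-values between 0.100 and 0.120, and at 0.0591 on the authors' processed values. LIF, of the same family, lay at 0.18 and CLCF1 at -0.41 log2 units, and neither was called. OSM, CNTF, IL17A and IL22 did not pass the detection filter.

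Among 9 tested receptor genes of these cytokines, 1 rose, 0 fell and 8 were not called, against 2.18% higher and 2.68% lower over all genes. Unadjusted, 2 were higher and 1 was lower, against 1732 and 1905 of all 14928 genes. TNFRSF1B, the second TNF receptor, rose by 1.38 ± 0.12 log2 units (SE; limma adjusted p 0.00690), and on leaving out single arrays that p lay between 0.0529 and 0.0603. TNFRSF1A, the widely expressed TNF receptor, lay at -0.43 log2 units. The shared interleukin 6 chain IL6ST lay at 0.34 at its brightest probe and at 0.58 at its other passing probe. IL1RAP, counted as not called, lay at -0.12 at its brightest probe, but its other passing probe lay at -1.09 log2 units. The counts take the brightest probe alone. The specific interleukin 6 receptor chain IL6R did not pass the detection filter. The median over the 9 was -0.13 log2 units.

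Of the 17 tested signal transducers and transcription factors, 4 rose, 0 fell and 13 were not called, against 2.18% higher and 2.68% lower over all genes. Unadjusted, 7 were higher and 1 was lower, against 1732 and 1905 of all 14928 genes. The 4 that rose are genes of the NF-kB system. Its subunits NFKB1, at 0.32 log2 units (limma adjusted p 0.210), and RELA, at 0.41 (limma adjusted p 0.121), were not called. NFKB2, the p100 subunit, read 8.17 and 8.01 log2 units in shT7#1 and 6.48 and 6.44 in shCntrl, and rose by 1.63 ± 0.13 (SE; limma adjusted p 0.00539). RELB, its usual partner, rose by 1.62 ± 0.13 (SE; limma adjusted p 0.00538). Leaving out shCntrl replicate 2 took NFKB2 to an adjusted p of 0.0510, and leaving out shCntrl replicate 1 took RELB to 0.05002, just past the threshold.

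NFKBIZ, the nuclear cofactor that NF-kB needs for LCN2 and other secondary genes, read 8.79 and 8.88 log2 units in shT7#1 and 7.45 and 7.46 in shCntrl. It rose by 1.38 ± 0.12 (SE; limma adjusted p 0.00717). The authors' processed value for NFKBIZ, given once for its 2 probes, changed by only 0.53 and was not called, at 0.148. NFKBIA, the inhibitor that NF-kB itself induces, rose by 1.14 ± 0.12 (SE; limma adjusted p 0.0123). Leaving out single arrays took NFKBIZ to between 0.0518 and 0.0614 and NFKBIA to between 0.0757 and 0.0817. The factors of the interleukin 6 and C/EBP arms were not called, with STAT3 at 0.13, CEBPB at 0.36, CEBPD at -0.00 and the STAT3 feedback gene SOCS3 at -0.25 log2 units. The median over the 17 was 0.13.

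**Figure D4:**
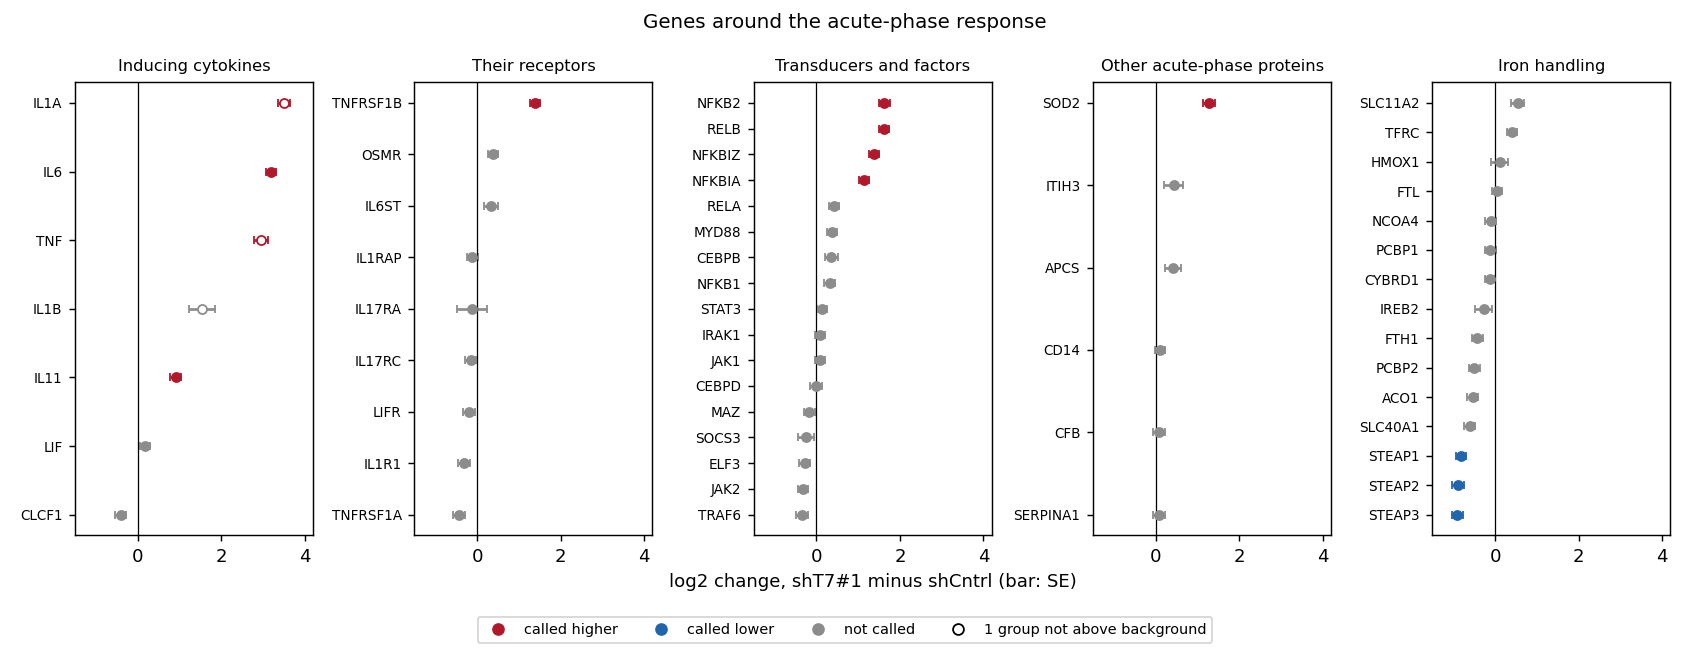
Log2 change, shT7#1 minus shCntrl, with standard errors as bars, of tested genes of 5 lists around the acute-phase response, red for called higher, blue for called lower and grey for not called. Open circles are genes not above background in shCntrl, whose fitted change is not a measured size. IL1A, IL6 and TNF lie furthest to the right.

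The other acute-phase genes mostly missed the detection filter or the threshold. Of 21 further genes raised in the acute phase, 7 passed the detection filter, of which 1 rose, 0 fell and 6 were not called. The shares over all genes were 2.18% higher and 2.68% lower. Unadjusted, 2 of the 7 were higher and 0 lower, against 1732 and 1905 of all 14928 genes. The gene that rose was SOD2, the mitochondrial superoxide dismutase, which read 10.42 and 10.13 log2 units in shT7#1 and 9.03 and 8.98 in shCntrl. Its change was 1.27 ± 0.15 (SE; limma adjusted p 0.0146), and on leaving out single arrays that p lay between 0.0514 and 0.0881. SERPINA1 (alpha-1 antitrypsin) was well above background and lay at 0.07 log2 units at its brightest probe, with its other passing probes at 0.18 and 0.63. Complement factor B (CFB) lay at 0.08 and the pentraxin APCS at 0.41 log2 units. C-reactive protein (CRP), the fibrinogen genes FGA, FGB and FGG, hepcidin (HAMP), C3, LBP and SERPINA3 did not pass the filter. Of 12 genes lowered in the acute phase 3 passed (ALB, FETUB and F12), and 0 were called by limma, with 0 also at an unadjusted p under 0.05 for higher and 1, ALB at -0.37 log2 units, for lower.

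Partners of the member proteins were mostly below detection. Of 23 receptor and partner genes 6 passed the filter, and 1 rose, 0 fell and 5 were not called. The shares over all genes were 2.18% higher and 2.68% lower. Unadjusted, 2 of the 6 were higher and 0 lower, against 1732 and 1905 of all 14928 genes. MMP9, the gelatinase that forms a complex with LCN2 in human cells, read 6.03 and 6.40 log2 units in shT7#1 and 4.44 and 4.33, within background, in shCntrl. MMP9, which passed the filter through its shT7#1 arrays alone, rose at least 2.41-fold, with a limma adjusted p of 0.00756, which became 0.0560 without shCntrl replicate 1 and 0.0588 without shCntrl replicate 2. SCARB1, a lipoprotein receptor that takes up serum amyloid A, lay at 0.48 and TLR4 at -0.05 log2 units, and neither was called. The LCN2 receptors SLC22A17 and LRP2, the serum amyloid A receptor FPR2, the haptoglobin receptor CD163 and the PTX3 partner TNFAIP6 did not pass the filter.

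Among genes of iron handling, on which LCN2 acts, the calls were 3 members of the STEAP family, all lower. Of 15 tested genes, 0 rose, 3 fell and limma left 12 uncalled; at an unadjusted p under 0.05, 2 were higher (SLC11A2 at 0.54 and TFRC at 0.41 log2 units) and 7 lower. Over all genes tested 2.18% were called higher and 2.68% lower, and unadjusted 1732 of 14928 were higher and 1905 lower. The median was -0.28 log2 units, against -0.00 over all genes tested. The 3 are metalloreductases that turn ferric into ferrous iron or, in the case of STEAP1, a close relative. STEAP3, the endosomal reductase of the transferrin cycle, read 8.02 and 8.15 log2 units in shT7#1 and 9.02 and 8.97 in shCntrl, and fell by 0.91 (SE 0.13, limma adjusted p 0.0224). STEAP2 fell by 0.90 (SE 0.15, limma adjusted p 0.0341) and STEAP1 by 0.83 (SE 0.12, limma adjusted p 0.0280). All 3 calls were lost on leaving out any 1 array, with adjusted p-values between 0.0927 and 0.145, and on the authors' processed values, between 0.0967 and 0.254. The exporter SLC40A1 lay at -0.61 and ferritin heavy chain FTH1 at -0.42 log2 units, neither of them called.

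In all, 133 genes were listed around the members, with earlier results of these data known. Of these 65 passed the filter, and 11 were called higher and 3 lower. Through shT7#1 alone 4 of the 65 passed, which favours a call of higher, and 1 through shCntrl alone. Of the 11, 8 were above background in shCntrl too, against 290 of the 326 called higher over all genes tested. Over all genes tested the shares called were 2.18% higher and 2.68% lower. On leaving out single arrays the 11 became 4 to 7 and the 3 became 0. Of the 18 relatives by protein family, which include the neuronal pentraxins NPTX1 and NPTX2 and the lipocalins APOD and PTGDS, 1 passed the filter, APOM at -0.13 log2 units, and it was not called.

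None of the tested genes next to the members along the chromosome was called. This comparison was added after the rule for naming genes was fixed. The SAA genes, PTX3 and LCN2 have 24 neighbours when 4 protein-coding genes on each side are taken, and 18 of these passed the filter. By limma 0 rose and 0 fell. Over all genes tested 2.18% were called higher and 2.68% lower, so 0 of 18 is near that share and is no result about the neighbours. At an unadjusted p under 0.05 there was 1, against 1732 higher and 1905 lower of the 14928 genes tested. The neighbour under 0.05 was HPS5, next to SAA1 and a subunit of a lysosome-trafficking complex, at 0.49 ± 0.13 log2 units (SE, limma adjusted p 0.0982). On the far side of the SAA genes SAAL1 lay at 0.24, and LDHA, 3 genes beyond SAA1, at -0.14 log2 units. The 18 changes ran from -0.27 to 0.49.

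**Figure D5:**
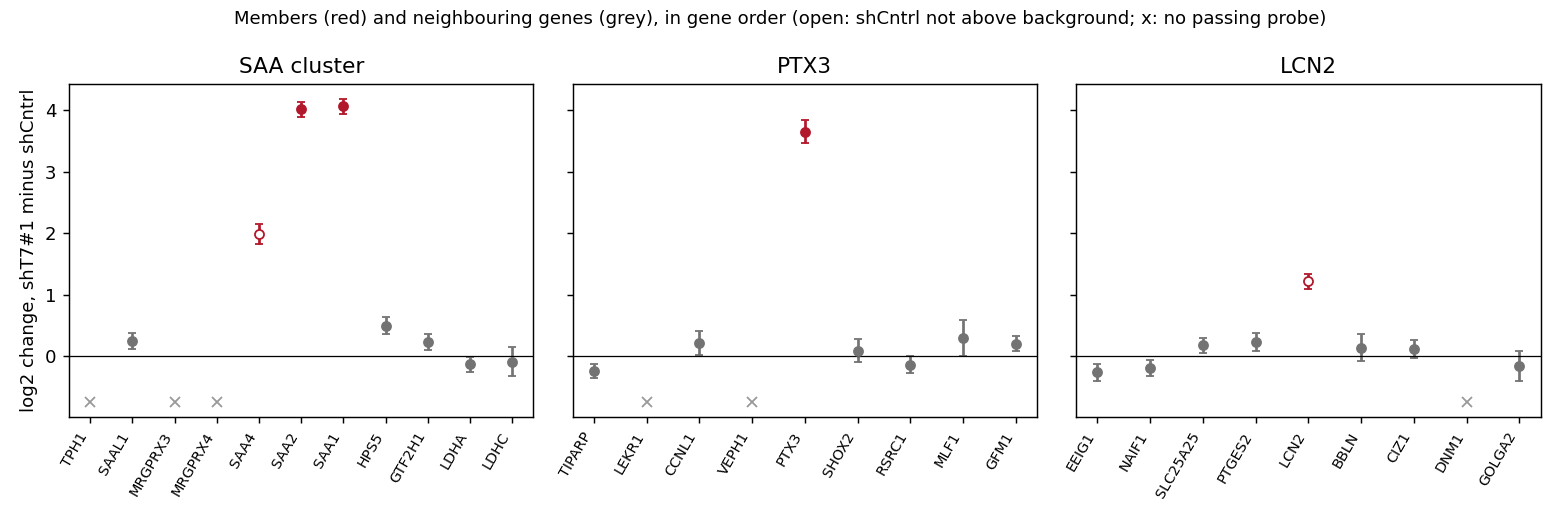
Log2 change, shT7#1 minus shCntrl, with standard errors as bars, for the SAA genes, PTX3 and LCN2 (red, open where shCntrl was not above background) and the 4 protein-coding genes on each side (grey), in their order along the chromosome. Crosses at the bottom mark neighbours with no passing probe, and the grey points lie between -0.27 and 0.49.

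Genes with the most similar pattern over the 4 arrays were found by the Euclidean distance between log2 profiles, each centred on its own mean. For SAA1 they were CSF2 (distance 0.35), LTB (0.40) and CXCL2 (0.48), and the same genes were nearest to SAA2, at 0.31, 0.38 and 0.47. CSF2 encodes the growth factor GM-CSF, LTB lymphotoxin beta and CXCL2 a neutrophil chemokine. CSF2 read 11.48 and 11.39 log2 units in shT7#1 and 7.75 and 7.58 in shCntrl. For LTB the nearest probe was a dimmer one, within background in shCntrl. CXCL2 was above background on 1 shCntrl array.

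PTX3 was nearest to CXCL2 (0.19), to LTA, lymphotoxin alpha (0.21), and to EBI3, an interleukin subunit (0.38). LTA read 9.33 and 9.23 log2 units in shT7#1 and 5.23 and 5.91 in shCntrl, with the same order of the shCntrl arrays as PTX3. In shT7#1 the order of the arrays was opposite, with PTX3 at 9.03 and 9.16. SAA4 was nearest to TMEM132A (0.10), the chemokine gene CCL20 (0.17) and KISS1 (0.20). SAA4, LCN2, CCL20, EBI3 and the LTB probe were within background on both shCntrl arrays, and CXCL2 on 1 of them. Distances that involve any of these genes rest partly on unmeasured levels. LCN2 was nearest to LRRC20 (0.02), PAG1 (0.03) and PPME1 (0.05), which are well above background in both groups. The distance takes in both the size of the change and the order of the arrays within a group.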

How the data were processed

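The members and gene lists were chosen with earlier results of these data known. The authors deposited a signal intensity for every probe and array, not normalised, each with a detection p-value, and the labels name GenomeStudio 2011.1 among the submitters' processing notes. They also deposited processed log2 values by gene symbol, and mean log2 values with a linear fold ratio. Per the file headers both were RMA-normalised in ArrayStar, and symbols below 2.5 in both groups were left out of the fold table by the authors. Here intensities were corrected by normexp from the detection p-values (offset 16), quantile-normalised and log2-transformed with limma 3.58.1 in R 4.3.3. Probes above background (detection p below 0.05) on at least 2 arrays were fitted together with lmFit and eBayes on group alone (2 residual, 3.74 borrowed degrees of freedom). P-values are two-sided, adjusted over 20366 probes by Benjamini-Hochberg, with a threshold of 0.05. SDs are over 2 arrays. SEs are from the variance moderated by eBayes over all probes fitted, and are not the spread of a probe's own arrays. A listed gene was read at its brightest passing probe. Where shCntrl was within background, "at least N-fold" compares the shT7#1 mean with the shCntrl mean after each shCntrl value under that array's detection floor was lifted to it. Named by rule were all member probes, the inducing cytokines, up to 5 called genes per list and direction, and 3 nearest patterns per member. Other genes are quoted as values of their list, and 1 listed gene (SELENOS) was found under an older symbol. For 1 gene counted in a list no value is reported here, in the text or drawn. Gene order and windows came from RefSeq GRCh38.p14. The fitting was tested on simulated data. The number of arrays limits the precision. Alternatives were the background correction, offset, scaling, detection filter, variance trend, 1 probe per gene, the authors' values, a replicate block and leaving out each array. Where an array was left out, the detection filter stayed as set on all 4 arrays.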

Additional observations from a re-analysis of the deposited data

How the results depend on the processing

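Over all passing probes 423 were called higher and 522 lower. These counts became 1447 and 1547 without background correction, 1163 and 1291 with an offset of 50, 1389 and 1494 with an intensity trend in eBayes, 760 and 888 where detection on all 4 arrays was required, and 114 and 102 on the authors' processed values. Leaving out 1 array gave 70 to 85 higher and 22 to 38 lower. The listed genes, 11 higher and 3 lower, became 19 and 9 without background correction, 18 and 8 with the intensity trend, and 9 and 0 on the authors' values. With an offset of 50 there were 8 lower and with detection on all 4 arrays 6 lower. Leaving out 1 array gave 4 to 7 higher and 0 lower. The cause of these shifts was not tested, beyond the loss of 1 residual degree of freedom where an array was left out; the lone array of a group is then assumed to vary like the pair of the other.

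The replicate numbers of the labels are not said to pair the arrays. With them as a block (replicate block) 471 probes were higher and 572 lower, and 12 listed genes were higher and 3 lower. Deviations of same-numbered arrays correlated at 0.13.

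The 7 detected member probes kept a positive change in all 84 alternative values. Of these, 20 moved by more than the SD between arrays, namely those with no background correction, an offset of 50 and the authors' values, and median scaling for LCN2. Of 18 named list genes, none changed direction in 230 alternative values. Signal over background limits SAA4, LCN2, IL1A, IL1B, TNF and MMP9, whose shCntrl level is only bounded.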
